A study of Rattus norvegicus with 32 samples.

Results

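The effect of METH on gene expression was compared between the nucleus accumbens (NAc) and the cornu ammonis of the hippocampus (CA) in 16 of the 32 RNA-seq samples of rat brain. The quantity described is a difference of differences: the log2 ratio of METH to saline in the NAc minus the log2 ratio of METH to saline in the CA. A positive value means that expression with METH was higher relative to saline in the NAc than in the CA, and a negative value means the opposite. The 16 samples were chosen by their labelled region. They form 4 groups of 4 samples: NAc Sal, NAc METH, CA Sal and CA METH. All came from adult male Sprague-Dawley rats with no transgene or deletion. METH animals received methamphetamine at 10 mg/kg in 4 intraperitoneal injections spaced 2 h apart, and Sal animals received saline on the same schedule. Brains were taken the day after the last injection. The NAc was taken with a tissue punch and the CA was scooped out by hand, so the cells in each sample depended on the dissection. The labels do not say which samples came from one animal, and p-values therefore measure the spread between these samples.

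Methamphetamine releases dopamine and the other monoamines from nerve terminals. The NAc, the ventral part of the striatum, is a main target of dopamine neurons, and most of its neurons are GABAergic medium spiny neurons that carry D1 or D2 dopamine receptors. The CA is built mainly of glutamatergic pyramidal neurons and receives far fewer dopamine fibres. High doses of METH are known for damage to monoamine terminals and for a reaction of astrocytes, which then make more of the filament protein GFAP.

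Total counts of the 16 samples ran from 11094002 to 19350101 (median 13724810), at which 1 read was worth 0.0559 to 0.0926 CPM (counts scaled to a common depth, on library sizes scaled by the upper quartile). NAc samples carried 2465 to 11120 CPM of 20 medium spiny neuron markers summed, and CA samples 470 to 1173 CPM, apart from the sample labelled NAc METH 3. That sample held 518 CPM, with 41.2 CPM of Ppp1r1b (DARPP-32, the signalling hub of these neurons) against 470 to 2410 CPM in the other 7 NAc samples. CA METH 3 was the highest CA sample for these markers, at 1173 CPM. For CA pyramidal neuron markers NAc METH 3 was the lowest of the 16 samples, at 486 CPM. The other 7 NAc samples held 920 to 1574 CPM and overlapped with the CA samples, at 1497 to 1925 CPM. NAc METH 3 was the highest of the 16 for thalamic neuron markers (610 CPM), oligodendrocyte and myelin genes (15220 CPM) and homeostatic astrocyte genes (11110 CPM). For oligodendrocyte and myelin genes NAc Sal 1 was next, at 13880 CPM. CA Sal 2 and CA METH 2 carried 2257 and 387 CPM of 16 ependymal and choroid plexus genes, against 21.0 to 67.6 CPM in the other 14 samples. Library numbers in the file headers are the same in NAc and CA, but numbers 14, 15, 20 and 21 carry the opposite treatment in the dentate gyrus samples of the series. These numbers are replicates 1 and 2 of each of the 4 groups. If the numbers mark animals, the treatment labels of these replicates conflict with those of the dentate gyrus, which was not resolved here. Sequencing runs were inferred from labels in the file headers. By these labels, 1 run held samples of all 4 groups (2 NAc Sal, 2 NAc METH, 1 CA Sal and 2 CA METH). The other inferred runs lacked NAc Sal or held 1 group only. CA Sal 1 and CA Sal 2 were labelled as merged, were treated as a run of their own and may pool runs. The study's methods describe fewer sequencing batches and do not name the samples in each, so the inferred runs were not checked against them. Sequencing run below means these inferred labels. In bulk tissue, fewer cells of a type and less RNA per cell cannot be told apart.

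**Figure D1:**
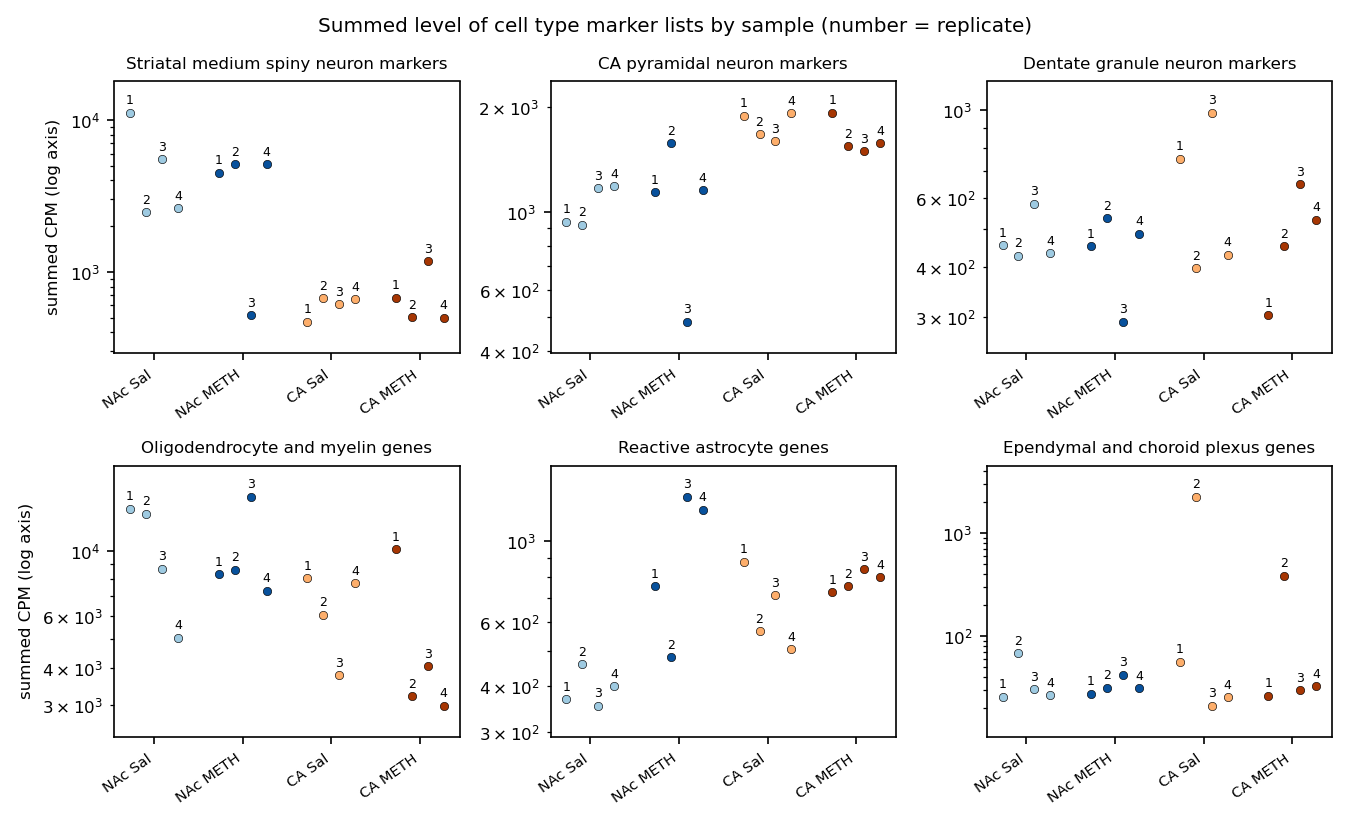
Summed CPM (log axis) of 6 cell type marker lists in each of the 16 samples, by group, with the replicate number beside each point. NAc METH 3 lies at 518 CPM for medium spiny neuron markers, near the CA samples, but is the lowest of the 16 for CA pyramidal neuron markers (486 CPM). CA Sal 2 and CA METH 2 stand above the other CA samples for ependymal and choroid plexus genes.

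The first question was which genes METH affected differently in the 2 regions, and no gene passed the test. Of 15385 genes fitted together, 0 (0%) had a false discovery rate (FDR, the p adjusted by Benjamini-Hochberg) below 0.01 with a fold above 1.5, and 0 had an FDR below 0.05, in the quasi-likelihood test of edgeR. DESeq2 and edgeR's likelihood ratio test also called 0 genes for the difference. The smallest adjusted p was 1.00. At an unadjusted p below 0.05 there were 367 genes (2.39%), 194 with a positive (1.26%) and 173 with a negative difference (1.12%). Where no gene differed, this threshold would on average pass a share of 0.05 of the genes, which is more than was found. Every gene value below is therefore a measurement whose difference between regions did not pass the test. The median standard error of the difference was 0.24 on the log2 scale, against 0.17 for the METH effect in either region, and the median 95% interval reached 0.52 to either side. Across all genes the median difference was 0.01.

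The METH effect within each region gave no call either. In the NAc 0 genes (0%) met the FDR and fold thresholds and 710 were at an unadjusted p below 0.05, 459 higher (2.98%) and 251 lower (1.63%) with METH. In the CA 0 genes (0%) met them and 876 were at an unadjusted p below 0.05, 560 higher (3.64%) and 316 lower (2.05%). The likelihood ratio test called 2 genes in the NAc, Gfap and RT1-Ba, and DESeq2 called Gfap. In the CA the likelihood ratio test called 5 genes (Cbs, Fam43b, Hdac5, LOC108348061 and Top2a). DESeq2 called these and Rbm3, and Cbs was the single call in the CA with 1 or with 2 estimated factors of unwanted variation as covariates. Cbs, Fam43b, LOC108348061 and Rbm3 were chosen after their values were seen.

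Of the 367 genes, 102 were at an unadjusted p below 0.05 for METH in the NAc alone, 130 in the CA alone, 9 in both regions with opposite signs, 4 in both with the same sign and 122 in neither. The METH effect had opposite signs in the 2 regions for 327 of the 367 (89.1%) and for 39.2% of all genes; the choice of genes by the difference itself favours opposite signs. The METH and saline samples did not overlap for 355 genes in the NAc (2.31%; 1.43% higher and 0.877% lower with METH) and for 681 genes in the CA (4.43%; 2.66% higher and 1.77% lower). They did not overlap in either region, in the same direction, for 45 of the 15385 genes, 22 higher and 23 lower with METH. A single gene, Gemin7, was apart in opposite directions, and it was named after its values were seen. Gemin7, a subunit of the SMN complex that assembles spliceosomal particles, was at 2.81, 2.82, 1.88 and 2.67 CPM in NAc Sal and 2.96, 3.46, 3.50 and 3.37 CPM in NAc METH, and at 2.68, 2.80, 2.68 and 3.23 CPM in CA Sal and 2.55, 2.63, 2.49 and 2.38 CPM in CA METH. Its difference was 0.56 (SE 0.22, unadjusted p = 0.0209, adjusted p = 1.00, edgeR quasi-likelihood). When the CA value was subtracted from the NAc value of the same library number, the METH and saline samples were apart for 285 genes (1.85%).

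**Figure D2:**
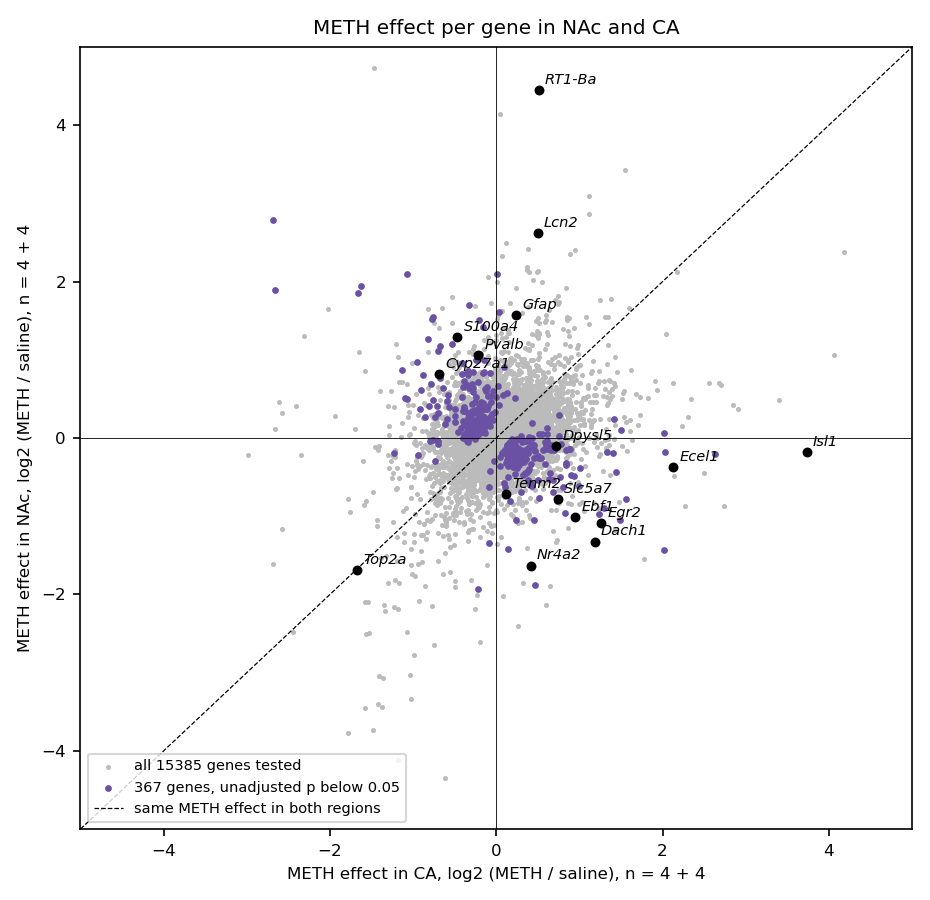
METH effect of each gene in the CA (horizontal) and in the NAc (vertical), log2 ratio of METH to saline, with 4 samples in each group. Purple points are the 367 genes at an unadjusted p below 0.05 for the difference, which lie away from the dashed line of equal effects; 1 of the 15385 genes falls outside the axes.

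Among the 12 genes with the smallest p and a positive difference was Gfap (chr10:90990762-90999506 in rn6, minus strand), the astrocyte filament gene. Gfap was at 227, 279, 222 and 271 CPM in NAc Sal and at 598, 352, 1060 and 967 CPM in NAc METH. In the CA it was at 725, 368, 573 and 378 CPM with saline and at 584, 562, 659 and 609 CPM with METH. All 4 NAc METH samples lay above all 4 NAc Sal samples, whereas CA METH lay inside the range of CA Sal. The log2 METH effect in the NAc was 1.57 (SE 0.29), that in the CA was 0.24 (SE 0.28), and the difference was 1.33 (SE 0.40, 95% interval 0.48 to 2.19, unadjusted p = 0.00452, adjusted p = 1.00, edgeR quasi-likelihood). The difference in Gfap was 1.12 without NAc METH 3, and 1.63 with replicates 3 and 4 of each group alone. Among samples of the run that held all 4 groups it was 0.35, with NAc METH 3 and 4, the 2 highest, absent from that run.

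S100a4, which encodes a calcium-binding protein, was at 1.18, 0.59, 1.03 and 0.72 CPM in NAc Sal and 1.67, 1.77, 1.99 and 3.10 CPM in NAc METH. In the CA it was at 2.80, 1.51, 1.67 and 2.5 CPM with saline and 2.96, 0.77, 1.53 and 0.91 CPM with METH. NAc METH again lay above NAc Sal in every sample, and the CA groups overlapped. The difference was 1.75 (SE 0.56), and 1.79 without NAc METH 3. Calr3, a calreticulin family gene, ran from 1.33 to 1.81 CPM in NAc Sal and from 2.54 to 3.80 CPM in NAc METH, with overlapping CA groups (2.15 to 2.85 and 1.85 to 2.52 CPM). Its difference was 1.00 (SE 0.27), and 0.43 with replicates 3 and 4 of each group alone. Stk3, a kinase of the Hippo pathway, and Pus1, a pseudouridine synthase, were also higher in every NAc METH sample than in any NAc Sal sample, with differences of 0.77 (SE 0.22) and 0.51 (SE 0.16).

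For other genes of these 12 the CA carried the separation. Samd12 ran from 59.7 to 81.7 CPM in CA Sal and from 48.8 to 58.8 CPM in CA METH, while the NAc groups spanned 59.3 to 66.0 and 62.1 to 68.4 CPM. Its difference was 0.42 (SE 0.13). Stx8, a SNARE protein of endosomes, was at 14 to 16.7 CPM in CA Sal and 11.8 to 14 CPM in CA METH, with a METH effect of -0.24 in the CA and 0.23 in the NAc and a difference of 0.47 (SE 0.14). Thumpd3, Rrp8 and Stx8 were lower in every CA METH than CA Sal sample, with differences of 0.45 (SE 0.12) for Thumpd3 and 0.45 (SE 0.14) for Rrp8, a methyltransferase of ribosomal RNA. Cyp27a1, the mitochondrial sterol 27-hydroxylase, had effects of 0.82 in the NAc and -0.69 in the CA, although its groups overlapped in both (0.60 to 1.55 and 1.48 to 2.82 CPM in NAc Sal and NAc METH; 1.96 to 4.47 and 1.31 to 2.30 CPM in CA Sal and CA METH). The difference of Cyp27a1 was 1.51 (SE 0.45). Dcakd and Ppil3 completed the 12, with differences of 0.73 (SE 0.22) and 0.64 (SE 0.20) and overlapping groups in both regions. All 12 differences kept their sign under 40 alternatives of the fit, which reuse the same samples, and the 12 were chosen by p. With sequencing run as covariate, Gfap (0.81), Calr3 (0.73), Dcakd (0.56), Stk3 (0.51), Ppil3 (0.51), Pus1 (0.46) and Samd12 (0.36) were no longer at an unadjusted p below 0.05.

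Grip1, a scaffold of AMPA receptors, was among the genes with the smallest p and a negative difference. It was at 38.7, 33.7, 36.6 and 31.3 CPM in NAc Sal and 25, 29.3, 30.2 and 22.9 CPM in NAc METH. In the CA it was at 37.5, 36.7, 35.6 and 30.9 CPM with saline and 34.9, 45.7, 40.3 and 46 CPM with METH. Every NAc METH sample lay below every NAc Sal sample, and in the CA 1 METH value lay within the range of saline. The METH effect was -0.38 (SE 0.11) for the NAc against 0.24 (SE 0.11) for the CA, a difference of -0.63 (SE 0.16, 95% interval -0.97 to -0.29, unadjusted p = 0.00137, adjusted p = 1.00, edgeR quasi-likelihood). The difference of Grip1 kept its sign under all 40 alternatives. Grip1 was chosen by its p, and the alternatives reuse the same samples, so this is not independent evidence.

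Ecel1 (chr9:94239006-94250809, minus strand) encodes a neuronal membrane protease related to endothelin-converting enzymes. It was at 0.67, 5.74, 1.91 and 2.75 CPM in CA Sal and at 6.75, 12.8, 20.1 and 6.99 CPM in CA METH, with no overlap. In the NAc it was far higher and the groups overlapped, at 62.9, 129, 70.8 and 92.2 CPM with saline and 51, 55.8, 116 and 50.6 CPM with METH. For the CA the METH effect was 2.12 (SE 0.53) and for the NAc -0.38 (SE 0.44), a difference of -2.50 (SE 0.69), and -2.89 without NAc METH 3. The ratio in the CA rested on a low baseline, which was lowest in CA Sal 1.

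Dpysl5, a collapsin response mediator protein of growing axons, was at 4.25, 7.71, 8.05 and 8.48 CPM in CA Sal and 13.2, 11, 9.95 and 12.7 CPM in CA METH, against 14 to 15.6 and 12.8 to 16.4 CPM in the NAc groups. Its difference was -0.83 (SE 0.24). Hdac5 (chr10:90140183-90151042, minus strand), a class IIa histone deacetylase, was at 75.6, 105, 88.8 and 111 CPM in CA Sal and 150, 137, 142 and 149 CPM in CA METH. In the NAc it was at 109, 128, 121 and 124 CPM with saline and 124, 133, 145 and 126 CPM with METH. The CA groups of Hdac5 were apart and the NAc groups overlapped, with a METH effect of 0.61 (SE 0.11) for the CA against 0.13 (SE 0.11) for the NAc. The difference of Hdac5 was -0.48 (SE 0.15), and -0.30 among the samples of the run that held all 4 groups. Id4, an inhibitor of basic helix-loop-helix factors, ran from 27.0 to 33.6 CPM in CA Sal and from 37.7 to 49.8 CPM in CA METH, with overlapping NAc groups (41.6 to 63.7 and 47.6 to 63.1 CPM). The difference of Id4 was -0.64 (SE 0.20).

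Further negative differences among these genes were those of Mamstr, Spred2, Tbl1x, Txndc16, Arl5b and Tenm2. Spred2, an inhibitor of Ras signalling, was higher in every CA METH sample (62.2 to 70.3 CPM) than in CA Sal (47.1 to 57.2 CPM), with a difference of -0.63 (SE 0.19). Tbl1x, a part of nuclear receptor corepressor complexes, and Txndc16 were also higher in every CA METH sample, with differences of -0.36 (SE 0.11) and -0.32 (SE 0.10). Tenm2, an adhesion protein of synapses, was lower in every NAc METH sample (111 to 153 CPM) than in NAc Sal (178 to 299 CPM), and ran from 295 to 373 and from 251 to 448 CPM in CA Sal and CA METH. The difference of Tenm2 was -0.83 (SE 0.27), and -0.37 with replicates 3 and 4 alone. Mamstr, a coactivator of MEF2, and Arl5b were lower in every NAc METH sample, with differences of -0.99 (SE 0.29) and -0.45 (SE 0.14). Not all of the negative differences stayed at an unadjusted p below 0.05 with sequencing run as covariate. Those that did not were Dpysl5 (-0.60), Hdac5 (-0.42), Id4 (-0.51), Spred2 (-0.41), Tbl1x (-0.29), Txndc16 (-0.17) and Tenm2 (-0.52).

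**Figure D3:**
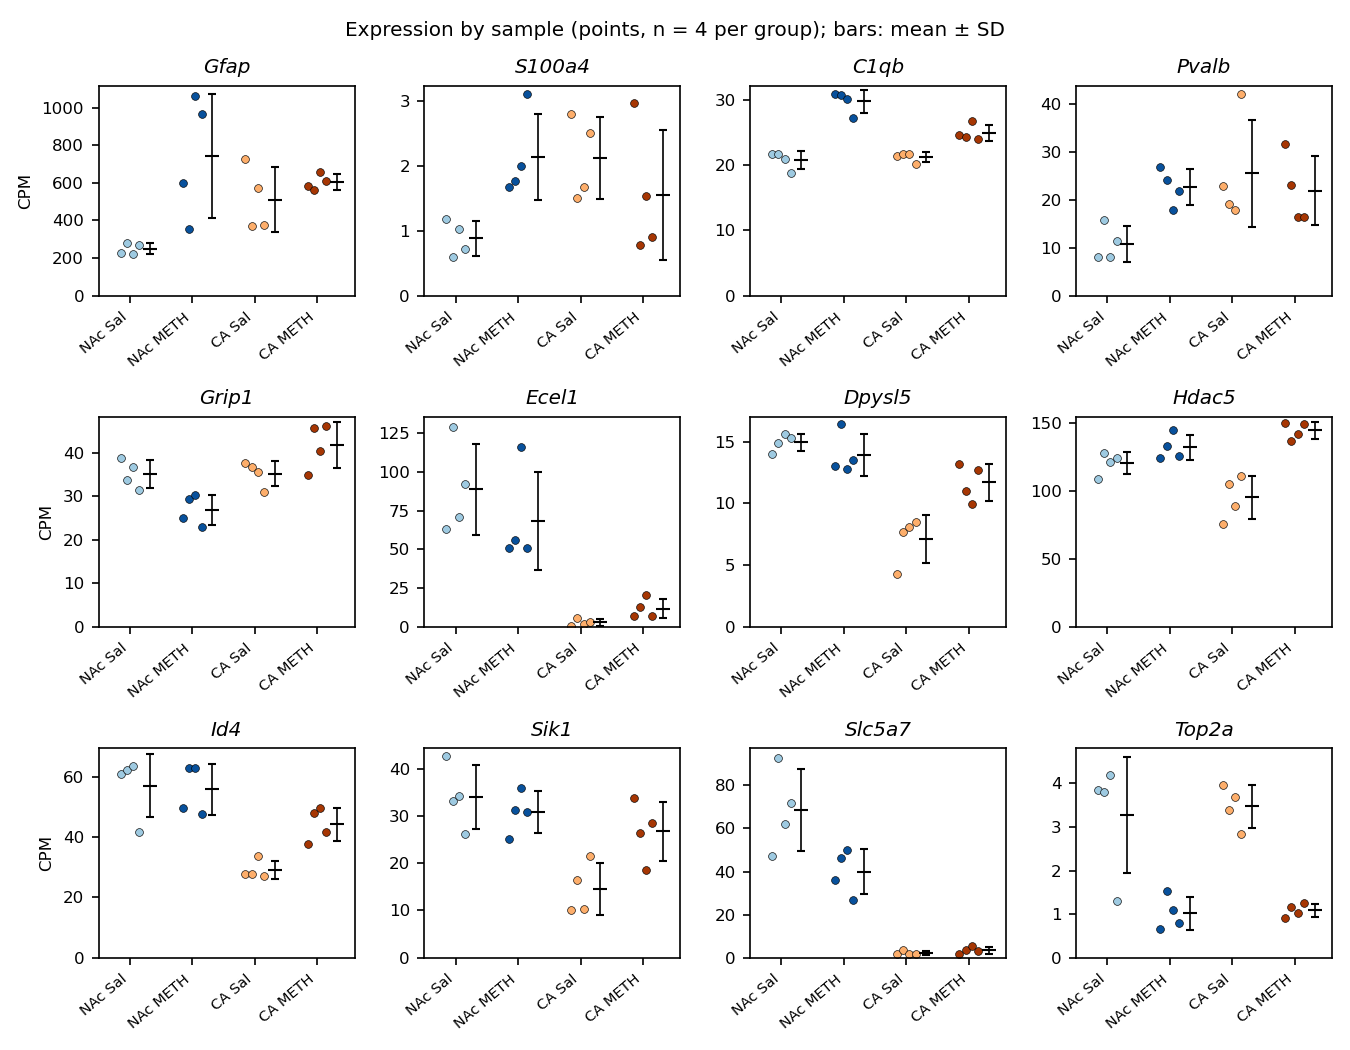
CPM (vertical axis, from 0) of 12 genes in each of the 16 samples by group, with the mean and SD of 4 samples beside the points. Gfap, S100a4 and Pvalb were higher in every NAc METH than NAc Sal sample, and Ecel1, Dpysl5, Hdac5 and Id4 in every CA METH than CA Sal sample. C1qb was higher with METH in every sample of both regions, and Top2a was at 0.65 to 1.52 CPM with METH in both regions.

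The 29 lists of genes held 539 distinct genes, of which 528 were in the count files and 500 were tested. Cldn5, Otx2, Hspa1a and Fth1 were listed at 0 in all 16 samples. For the difference 28 of the 500 were at an unadjusted p below 0.05, 13 positive and 15 negative. This stands beside 2.39% of all genes (1.26% positive and 1.12% negative), and 0 passed the adjusted test. Lists are described by counts and medians, beside a median difference of 0.01 over all genes. Of all 15385 genes, 7918 had a difference above 0 and 7467 below 0. Members of a list were measured in the same samples, so their signs are not independent.

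Reactive astrocyte genes had a median difference of 0.31 over 18 tested members, and 3 (Gfap, Lcn2 and Cd44) were at an unadjusted p below 0.05, all positive. The median METH effect was 0.49 in the NAc and 0.25 in the CA, with 15 and 14 of the 18 members above 0. Lcn2, a secreted protein that binds iron siderophores, had 2, 6, 2 and 1 reads in NAc Sal and 9, 22, 22 and 14 reads in NAc METH, with 7, 11, 3 and 3 reads in CA Sal and 2, 10, 10 and 10 in CA METH. The difference of Lcn2 was 2.13 (SE 0.79). None of Gfap, Lcn2 (1.88) and Cd44 (0.54) stayed at an unadjusted p below 0.05 with sequencing run as covariate. Without NAc METH 3 the list median was -0.03, and this sample was the highest for both Gfap and the summed list (1326 CPM, against 480 to 1222 CPM in the other NAc METH samples). Hspb1, a small heat shock protein in the same list, had METH effects of 1.40 in the NAc, where the groups overlapped, and 0.80 in the CA, where they did not (difference 0.60, SE 0.49). Homeostatic astrocyte genes had a median difference of 0.01, with 0 of 20 members at an unadjusted p below 0.05.

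Microglia and complement genes likewise had a median difference of 0.01 over 20 members, with effects of 0.17 in the NAc and 0.13 in the CA. C1qb, a chain of complement C1q, was at 21.7, 21.7, 20.9 and 18.8 CPM in NAc Sal and 30.9, 30.7, 30.1 and 27.2 CPM in NAc METH, and at 21.3, 21.7, 21.7 and 20.2 CPM in CA Sal and 24.5, 24.3, 26.7 and 24.0 CPM in CA METH. METH samples lay above saline in both regions. The NAc effect of 0.52 (SE 0.07) had the smallest adjusted p of any gene in the NAc, 0.0534 (edgeR quasi-likelihood), and the difference from the CA effect of 0.23 (SE 0.07) was 0.29 (SE 0.10). Interferon-stimulated and antigen presentation genes had a median difference of 0.18 over 25 members. RT1-Ba, a class II histocompatibility gene whose reads may be shared with related genes, had 0, 0, 1 and 2 reads in NAc Sal and 10, 5, 18 and 44 reads in NAc METH, a ratio of 26.6 (95% interval 8.78 to 132, exact binomial, counting error only). It had 7, 15, 10 and 6 reads in CA Sal and 1, 10, 15 and 26 in CA METH, where the groups overlapped. Without NAc METH 3 the list median was -0.09.

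Immediate early response genes, which neurons switch on with activity, had a median difference of -0.44 over 27 members, 22 of them below 0. Those at an unadjusted p below 0.05 were 5, all negative, beside 1.12% of all genes: Sik1, Per1, Nr4a2, Nr4a3 and Egr2. With sequencing run as covariate, Nr4a2 (-2.19) stayed below that level. Sik1 (-0.62), Per1 (-0.32), Nr4a3 (-0.82) and Egr2 (-1.18) did not. Without NAc METH 3, 3 members were below it with a negative difference, beside 2.41% of all genes in that fit. The median effect was -0.23 in the NAc, with 7 of 27 members above 0, and 0.23 in the CA, with 20 of 27 above 0. Sik1, a kinase induced by cAMP, was at 10.1, 16.4, 10.3 and 21.5 CPM in CA Sal and 33.7, 26.3, 18.6 and 28.4 CPM in CA METH, and at 26.2 to 42.7 and 25.1 to 36.0 CPM in the NAc groups. Its difference was -1.03 (SE 0.34), and -0.42 with replicates 3 and 4 alone. Nr4a2, an orphan nuclear receptor, was at 11.3, 4.78, 11.8 and 46.0 CPM in NAc Sal and 5.28, 4.13, 6.53 and 7.72 CPM in NAc METH, against 33.4, 78.3, 57.6 and 107 CPM in CA Sal and 188, 52.5, 57.4 and 69.9 CPM in CA METH. NAc Sal 4 and CA METH 1 were far above the rest of their groups, and the groups overlapped in both regions. The list median was -0.41 without NAc METH 3 and -0.58 without the samples numbered METH 3 in both regions. Egr2, a zinc finger factor, had a difference of -2.35 (SE 1.02), and its highest values were in NAc Sal 1 (18.6 CPM) and CA METH 1 (13.5 CPM).

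Striatal medium spiny neuron markers had a median difference of -1.10 over 20 members, 19 of them below 0, beside 7467 of all 15385 genes. Of the 20, 2 (Ebf1 and Isl1) were at an unadjusted p below 0.05. Dopamine receptors and striatal cAMP signalling genes had a median of -0.58, with 20 of 21 below 0 and 0 at an unadjusted p below 0.05. Both medians moved with the samples numbered METH 3, the lowest NAc and the highest CA sample for these markers. Without NAc METH 3 they were -0.74 and -0.29, and without METH 3 of both regions they were -0.13 and 0.02. Drd1, the D1 receptor, was at 376, 95.8, 224 and 137 CPM in NAc Sal and 188, 223, 7.22 and 222 CPM in NAc METH, and at 3.75, 14.7, 6.97 and 7.59 CPM in CA Sal and 13.1, 8.81, 21.3 and 10.8 CPM in CA METH. The difference of Drd1 was -1.11 (SE 1.01, 95% interval -3.25 to 1.04). Drd2, the D2 receptor, was at 348, 82.5, 162 and 63.0 CPM in NAc Sal and 111, 142, 13.5 and 124 CPM in NAc METH, with a difference of -1.66 (SE 1.09). Isl1, a LIM homeobox factor of striatal neurons, had 0, 2, 0 and 0 reads in CA Sal and 0, 0, 32 and 0 in CA METH, so its effect in the CA came from CA METH 3 alone, and its difference turned from -3.92 to 2.04 without that sample. Ebf1, another striatal transcription factor, was at 7.72 CPM in CA METH 3 and 2.16 to 2.55 CPM in the other CA METH samples, and had a difference of -1.97 (SE 0.69).

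Interneuron markers had a median difference of -0.37 over 14 members. Slc5a7, the choline transporter of cholinergic neurons, was at 47.3, 92.8, 61.9 and 71.9 CPM in NAc Sal and 36.2, 46.2, 50 and 26.8 CPM in NAc METH, and at 1.51 to 3.70 and 1.56 to 5.55 CPM in the CA groups. The NAc groups overlapped by 1 sample. The difference of Slc5a7 was -1.53 (SE 0.50), and -1.66 without NAc METH 3. Pvalb, parvalbumin of fast-spiking interneurons, went the other way, at 7.98, 15.8, 8.04 and 11.4 CPM in NAc Sal and 26.9, 24.2, 17.9 and 21.8 CPM in NAc METH, with CA groups of 18 to 42.1 and 16.4 to 31.8 CPM. Pvalb had a difference of 1.28 (SE 0.42), and 1.38 without NAc METH 3. Slc32a1, the vesicular GABA transporter, had a difference of -0.58 (SE 0.24), which was 0.06 among samples of the run that held all 4 groups. Without NAc METH 3 the list median was -0.76 and 6 of 14 members were at an unadjusted p below 0.05 with a negative difference, beside 2.41% of all genes in that fit.

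**Figure D4:**
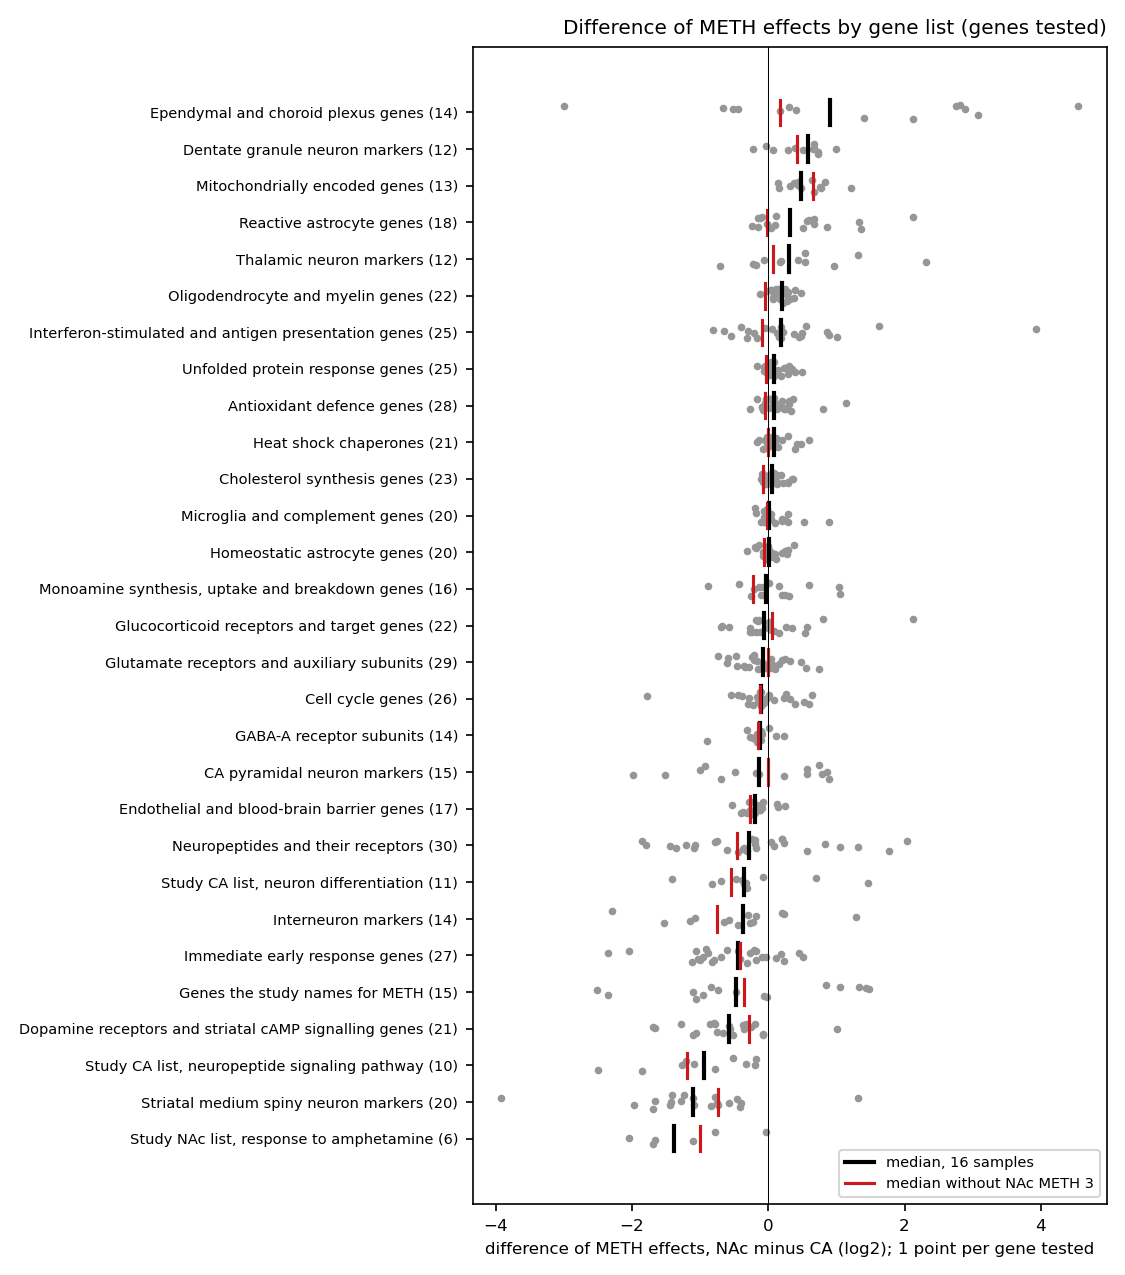
Difference of METH effects (NAc minus CA, log2) of each tested gene in 29 lists, with the list median from 16 samples in black and without NAc METH 3 in red. Medium spiny neuron markers had the lowest median of the marker lists (-1.10), and the medians of the 2 striatal lists lay closer to 0 without NAc METH 3.

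Markers of other cells varied between samples. CA pyramidal neuron markers had a median difference of -0.13 over 15 members and dentate granule neuron markers 0.58 over 12, with summed dentate markers at 398 to 984 CPM in CA Sal and 303 to 649 CPM in CA METH. Thalamic neuron markers had a median of 0.31, which was 0.07 without NAc METH 3. Oligodendrocyte and myelin genes had a median of 0.21 with 0 of 22 at an unadjusted p below 0.05, and it was -0.05 without NAc METH 3 and -0.13 without METH 3 of both regions. Endothelial genes had a median of -0.20, where 5 of 17 were higher with METH in the CA at an unadjusted p below 0.05, beside 3.64% of all genes (0 of 17 for the difference). Ependymal and choroid plexus genes had a median of 0.91 over 14 members, which was 0.17 without NAc METH 3 and 0.03 without METH 3 of both regions. Aqp1, the water channel of choroid plexus, was at 21.8 CPM in CA Sal 2 and 2.78 CPM in CA METH 2, against 0.22 to 0.78 CPM in the other CA samples, and its difference of 4.55 (SE 2.11) was 0.81 without CA Sal 2 and -2.80 among samples of the run that held all 4 groups. Mitochondrially encoded genes had a median difference of 0.49, with 13 of 13 above 0 and 0 at an unadjusted p below 0.05. These values depended on the inferred sequencing run. With run as covariate, Mt-nd4 (1.76), Mt-atp6 (1.55) and Mt-co3 (1.13) were at an unadjusted p below 0.05, beside 318 of all 15385 genes in that fit. The part of the dissection in these values was not tested.

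For lists of stress responses and metabolism the median differences lay near 0. Without NAc METH 3 the medians of the unfolded protein response (-0.03), antioxidant (-0.04), cholesterol synthesis (-0.08) and glucocorticoid (0.06) lists had the opposite sign, and those of the monoamine and neuropeptide lists were -0.22 and -0.47. With all 16 samples, heat shock chaperones had a median difference of 0.08 and unfolded protein response genes 0.09, where Ddit3 (CHOP, 0.50) and Dnajc3 (0.31) were at an unadjusted p below 0.05. Antioxidant defence genes had a median of 0.09, cholesterol synthesis genes 0.06, with Nsdhl at 0.37 and an unadjusted p below 0.05, and glucocorticoid receptors and target genes -0.06. Glutamate receptors had a median of -0.08 and GABA-A receptor subunits -0.12, both with 0 members at an unadjusted p below 0.05. Monoamine synthesis, uptake and breakdown genes had a median of -0.03, with Aldh1a1 (1.05, SE 0.47) at an unadjusted p below 0.05. Among 30 neuropeptides and receptors (median -0.28), Oprm1, the mu opioid receptor, had a difference of -0.61 (SE 0.28) and was the single member at an unadjusted p below 0.05.

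Cell cycle genes had METH effects below 0 in both regions for most members, with a median effect of -0.22 in the NAc and -0.35 in the CA and a median difference of -0.11 over 26 members. At an unadjusted p below 0.05, 6 were lower with METH in the NAc and 6 in the CA, beside 1.63% and 2.05% of all genes, 0 were higher in the NAc and 1 was higher in the CA, and 0 differed between regions. Top2a, a topoisomerase of dividing cells, was at 3.84, 3.80, 4.19 and 1.30 CPM in NAc Sal and 0.65, 1.52, 1.10 and 0.79 CPM in NAc METH. In the CA it was at 3.97, 3.40, 3.70 and 2.83 CPM with saline and 0.91, 1.16, 1.02 and 1.26 CPM with METH. NAc Sal 4 lay within the NAc METH range, and the CA groups were apart. The effects of Top2a were -1.68 (SE 0.33) and -1.67 (SE 0.33), and the difference was -0.01 (SE 0.45, 95% interval -0.97 to 0.94). This interval allows a difference of close to 1 on the log2 scale either way. Cenpf, a kinetochore protein, had effects of -1.29 (SE 0.22) and -0.84 (SE 0.22) and a difference of -0.45 (SE 0.31).

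A list of 15 genes was taken from those the study discusses for METH in these samples, so their behaviour here is not independent evidence. Their median difference was -0.48, and Gfap, Hdac5, Egr2 and Dach1 were at an unadjusted p below 0.05. None of these genes stayed below it with sequencing run as covariate (Dach1 -1.59). Dach1, a transcriptional cofactor, was at 102, 22.1, 35.4 and 8.75 CPM in NAc Sal and 21.0, 12.9, 10.8 and 22.6 CPM in NAc METH, with CA groups of 1.13 to 2.32 and 1.56 to 9.04 CPM, and had a difference of -2.51 (SE 0.93). Negative differences not past this level were those of Fosb (-0.96, SE 0.46), Egr4 (-1.07, SE 0.65), Meis2 (-0.85, SE 0.57) and Rarb (-0.73, SE 0.78), beside Drd1 above. Without NAc METH 3 these were -0.78 for Fosb, -0.73 for Egr4, -0.53 for Meis2, -0.36 for Rarb and -0.71 for Drd1. Positive ones were those of Nrn1 (1.05, SE 0.83), Bhlhe23 (1.48, SE 1.18), Prdm8 (1.43, SE 1.00) and Dpf3 (0.85, SE 0.55). Tshz2 and Top2a had differences of -0.06 (SE 0.59) and -0.01 (SE 0.45). Lists the study drew from the same samples were likewise not independent: its response to amphetamine genes in the NAc had a median difference of -1.38 with 6 of 6 below 0, its neuropeptide signaling genes in the CA -0.94 with 10 of 10 below 0 (Ecel1 and Prokr2 at an unadjusted p below 0.05), and its neuron differentiation genes in the CA -0.35 with 9 of 11 below 0 (Dpysl5 and Hdac5). Without METH 3 of both regions the first of these medians was -0.08 and the others were -1.26 and -0.62.

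**Figure D5:**
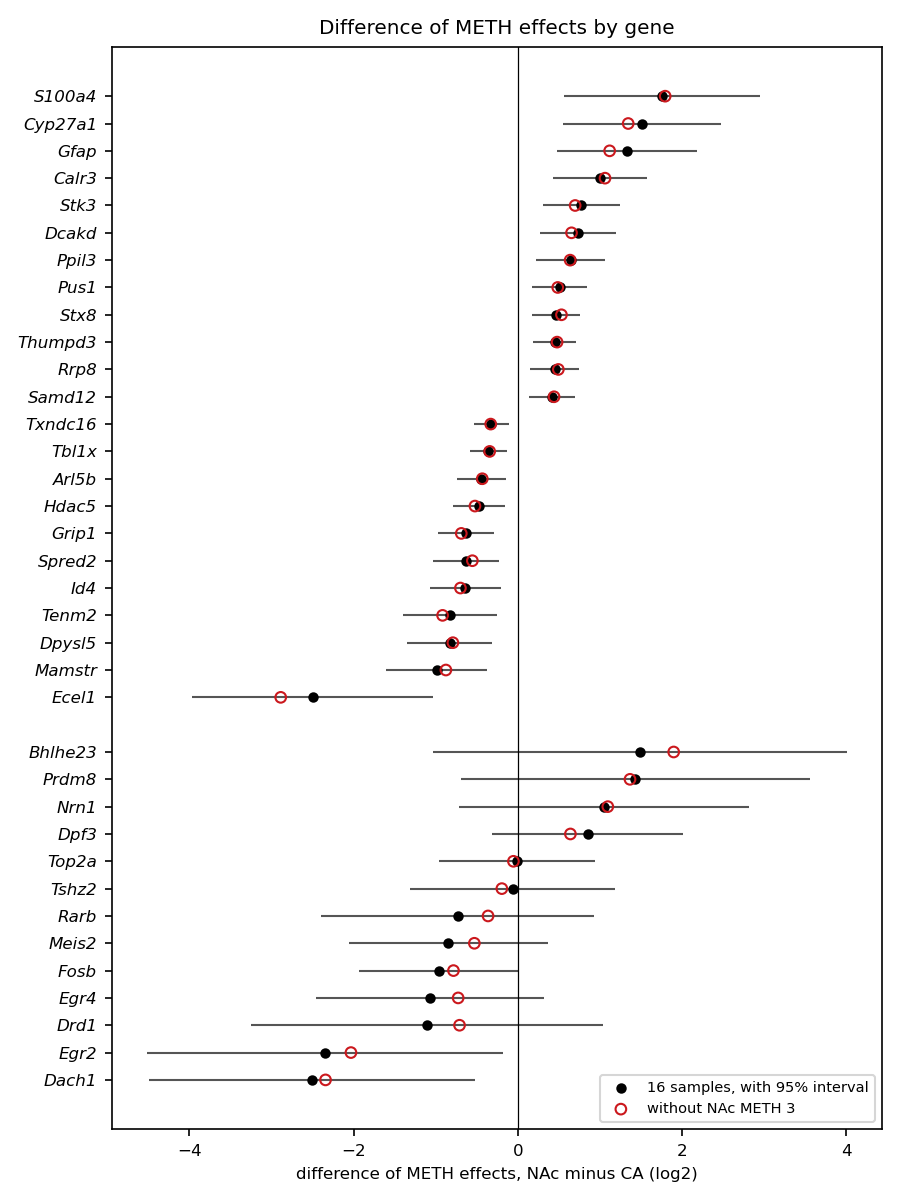
Difference of METH effects (NAc minus CA, log2) with its 95% interval (black) for 23 of the genes with the smallest p, and below them for 13 further genes the study named, with the value without NAc METH 3 (red circles). The intervals of the upper 23 genes exclude 0 before adjustment over 15385 genes, and 11 of the 13 below include it.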

How the data were processed

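Bulk RNA-seq of rRNA-depleted total RNA was analysed in 16 samples (NAc and CA, Sal and METH, 4 each). The authors deposited raw read counts per gene name for each sample, made, per the labels and file headers, with cutadapt 2.7, FastQC 0.11.4, STAR 2.5.2b and featureCounts 1.6.3 on rn6, counting without strand, so reads of overlapping and antisense genes cannot be told apart. The headers name an Ensembl annotation and the study's methods a UCSC one. In the count files 171 gene names lie on more than 1 chromosome, and 1 column of the series matrix matched no sample label and was not used.

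Counts were fitted with edgeR 4.0.16 in R 4.3.3 (limma 3.58.1): filterByExpr, upper-quartile normalization, and a quasi-likelihood model of 4 groups with 12 residual degrees of freedom. The difference is the interaction of region and treatment. A gene was called at an FDR below 0.01 and a fold above 1.5. The scripts were tested on simulated data. The study's own fit added RUVr factors whose number is not given in the sources used here; fits with 1 and 2 such factors were alternatives, beside DESeq2 1.42.0 and others. Figures were drawn with matplotlib 3.10.9.

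Genes were named by rule: the 12 with the smallest p in each direction among genes of at least 1 CPM in both regions and with a full symbol, a list of 15 genes the study discusses, and up to 3 members of each other list by p. Other genes were chosen after their values were seen, as were members given to describe a list. The comparison, the members and the lists were chosen with earlier results of these data known. The fits on the series matrix, on replicates 3 and 4, on 1 sequencing run and without NAc METH 3 and NAc Sal 2 were added after seeing the data. Intervals on read ratios cover counting error only. One result that meets the rule for named genes is not reported here.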

Additional observations from a re-analysis of the deposited data

Results flagged for a closer look

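Within the 4 groups, the gap between an extreme sample and its nearest neighbour, as a share of the group's range, was compared with Dixon's 95% critical value for 4 samples on log2 values (CPM plus a pseudocount of 1 for genes). Of 312 groups of values (66 genes named here and 12 marker sums), 38 passed it. Chance gives about 1 in 20 groups, and the genes were chosen after their values were seen.

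NAc METH 3 was the extreme sample in 11 of the 38. It was lowest in NAc METH for the medium spiny neuron marker sum (0.943), Ppp1r1b (0.921), Drd1 (0.95), Drd2 (0.894), Egr4 (0.939), Meis2 (0.856), Per1 (0.916) and Bhlhe23 (0.845), and highest for the homeostatic astrocyte sum (0.843), Ecel1 (0.883) and Radx (0.898). In CA METH, replicate 3 was highest for Drd2 (0.865), Ebf1 (0.886) and Isl1 (1), replicate 2 for Aqp1 (0.929), Radx (0.857) and the ependymal and choroid plexus sum (0.924), and replicate 1 for Cd44 (0.881), Dnajc3 (0.841) and Txndc16 (0.907), while replicate 1 was lowest for Prdm8 (0.974). In NAc METH, replicate 2 was lowest for Prdm8 (0.884).

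In CA Sal, replicate 2 was highest for Aqp1 (0.873), Isl1 (1) and Slc5a7 (0.935), replicate 1 lowest for Dpysl5 (0.856) and the interneuron marker sum (0.892), and replicate 3 highest for Id4 (0.86) and lowest for the mitochondrial sum (0.837). In NAc Sal, replicate 1 was highest for Per1 (0.856) and Tenm2 (0.845) and lowest for Stk3 (0.856). Replicate 4 was lowest for Id4 (0.893) and Top2a (0.903) and highest for Nrn1 (0.854), replicate 3 lowest for Gemin7 (0.865), and replicate 2 lowest for Rbm3 (0.837) and highest for the ependymal and choroid plexus sum (0.831).

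Gemin7 was the gene whose METH samples were all above saline in the NAc and all below it in the CA. Its difference of 0.56 did not pass the adjusted test.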

How the results depend on the processing

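Under all 40 alternatives 0 genes were called for the difference. The number at an unadjusted p below 0.05 (367, 194 of them higher) was 553 without a filter on low counts, 191 with all 32 samples in 1 fit, 674 (269 higher) with 1 RUVr factor and 879 (386 higher) with 2. Leaving out samples gave 201 to 612. It was 612 (237 higher) without NAc METH 3, 212 without CA Sal 1, and, without both regions of a number, 201 for Sal 1, 584 for Sal 4, 561 for METH 3 and 204 for METH 4. In the NAc the likelihood ratio test called 2 genes and DESeq2 1. The NAc number at an unadjusted p below 0.05 (710) was 435 with all 32 samples, 1218 with 1 and 1500 with 2 RUVr factors, and 504 to 1058 on leaving out samples. In the CA the likelihood ratio test called 5 genes, DESeq2 6, and the fits with 1 or 2 RUVr factors 1. The CA number (876) was 570 with sequencing run as covariate, 510 in the run that held all groups, 1395 and 1725 with 1 and 2 RUVr factors, and 471 (without CA Sal 1) to 1255 on leaving out samples, with 522 without both regions of Sal 1 and 535 without both regions of METH 4. The causes were not tested.

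With a replicate block of treatment and number (8 levels), 437 genes were at an unadjusted p below 0.05 for the difference, and with a block of 4 numbers 410. The METH effect within a region could not be fitted with 8 levels. Deviations of same-numbered NAc and CA samples had correlations of 0.115 to 0.242 for Sal and -0.110 to 0.237 for METH. The same-numbered CA sample was the best match in its group for NAc Sal 1, 2 and 3 and NAc METH 1 and 4. It was not for NAc Sal 4 and NAc METH 2 and 3. Numbers are not shown to mark 1 animal.

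Of the differences of named genes, 48 values had the opposite sign. In the run that held all groups these were Drd2 (0.11), Slc32a1 (0.064), Aqp1 (-2.80), Hspb1 (-0.20), Egr4 (0.0069), Rarb (0.27), Prdm8 (-0.57, and -0.16 with run as covariate) and Ppp1r1b (0.61). On leaving out samples, Isl1 ran from -6.20 to 2.21, Ppp1r1b from -1.26 to 0.11, Tshz2 from -0.36 to 0.28 and Top2a from -0.28 to 0.18. Tshz2 was also 0.12 with the 8-level replicate block, 0.17 with run as covariate, 0.0059 and 0.0066 with 1 and 2 RUVr factors, 0.47 with replicates 3 and 4, and 0.054 without NAc METH 3 and NAc Sal 2. Top2a was 0.029 and 0.0017 with the blocks of 8 and 4 levels, 0.12 with run, 0.0045 with 2 RUVr factors, 0.017 on the series matrix, 0.0035 with replicates 3 and 4, 0.14 in the single run, and 0.024 without NAc METH 3 and NAc Sal 2. Among the others, 2186 values kept sign and side of an unadjusted p of 0.05, 359 were no longer below it and 42 came below it.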

Other observations

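Radx, which encodes a single-stranded DNA-binding protein at replication forks, was chosen after its values were seen. It had 8, 11, 10 and 17 reads in NAc Sal and 1, 0, 20 and 1 reads in NAc METH, with 4, 4, 5 and 6 reads in CA Sal and 10, 16, 13 and 11 reads in CA METH. The NAc groups overlapped through NAc METH 3 alone, and the CA groups were apart. The difference of Radx was -2.54 (SE 1.03) with all 16 samples and -5.28 (SE 0.68) without NAc METH 3, where its adjusted p of 0.0275 (edgeR quasi-likelihood) was the smallest of all genes and was not below 0.01. Leaving out NAc METH 3 removed the NAc sample with the most Radx reads (20), so the value without it is not independent evidence.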
